A study of Mus musculus with 12 samples.

Results

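Mir-191 and Mir-425 are a pair of microRNAs (miRNAs) encoded side by side, and their 4 mature arms are described here among the 513 arms measured in mouse hippocampus. The arms were taken by name, as every row of the deposited table named Mir-191 or Mir-425, and they come from 2 hairpins. Row names follow MirGeneDB, where 5p and 3p are the 2 strands of a hairpin and an asterisk marks the passenger strand. The Mir-191 rows each join 2 precursor variants (v1 and v2) that the table does not separate. Small RNA was sequenced from 12 male wild-type C57BL/6J mice, a standard inbred strain. All were second-generation (F2) offspring traced through males. For 6 of them the grandfather had exercised (exercised lineage), and for the other 6 he had been sedentary (sedentary lineage). The labels attach exercise to the grandfathers, not to the mice sequenced, and give neither the age of the mice nor the form of exercise. The comparison asks whether hippocampal miRNAs of grandsons differ by what their grandfathers did.

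A miRNA is cut from a hairpin, and usually 1 strand, the guide, is kept in the silencing complex, where bases 2 to 8 (the seed) pair with messenger RNAs. Hairpins that lie close together on 1 strand are often cut from 1 primary transcript, and how much of each mature arm remains then depends on processing and turnover as well as on transcription. Mir-191 has been studied in rodent hippocampal neurons, where it acts on dendritic spines during long-term depression. The Mir-425 5p arm is known in human cells as a regulator of the natriuretic peptide gene NPPA. Mir-191 5p is also widely used as a reference for normalizing other miRNAs in RT-qPCR.

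The hairpins and arms are shown because every comparison of arms and neighbours rests on them. They are RefSeq sequences on GRCm38.p6 (mm10, the build named in the submitters' processing notes), read on the plus strand of chromosome 9, and all 4 arms matched. In the hairpins the capitals mark the 2 mature arms, 5p first.
Mir191 hairpin (chr9:108568319-108568392): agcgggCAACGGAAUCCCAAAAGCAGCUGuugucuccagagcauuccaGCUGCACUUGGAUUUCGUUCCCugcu
Mir425 hairpin (chr9:108568777-108568861): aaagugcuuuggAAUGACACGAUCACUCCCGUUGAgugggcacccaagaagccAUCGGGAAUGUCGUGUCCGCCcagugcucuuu
In the mature arms the capitals mark the seed.
mmu-miR-191-5p: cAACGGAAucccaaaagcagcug
mmu-miR-191-3p: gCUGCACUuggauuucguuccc
mmu-miR-425-5p: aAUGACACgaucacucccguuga
mmu-miR-425-3p: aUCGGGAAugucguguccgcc
The 4 seeds differ from each other, so the neighbours share no seed family. Each mature sequence was found in 1 hairpin of the RefSeq table. The seed of miR-425-5p was shared with 1 other mouse miRNA of that table, miR-489-3p, while each of the other 3 seeds was found under 1 name only.

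The hairpins are separated by 384 bases. In GENCODE M21 both lie in exon 1 of a transcript of the long noncoding RNA gene 4833445I07Rik (chr9:108567533-108569174, plus strand), and Mir191 lies in an intron of its other transcript. In RefSeq both lie within Dalrd3 (chr9:108567484-108572773), a gene that GENCODE starts downstream of them, at position 108569886. GENCODE also lists a predicted miRNA gene, Gm24083, on the opposite strand over Mir191.

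Libraries held 6862623 to 10219856 reads on all arms, and values are normalized counts, in which each library's reads were divided by a size factor of its own. The labels number separate mice, so each library stands for 1 animal. The submitters' codes begin with 1 of 4 stems, each on 3 libraries. R31 is on exercised-lineage mice 1 to 3 and R41 on mice 4 to 6, S11 is on sedentary-lineage mice 1 to 3 and S41 on mice 4 to 6, and what a stem stands for is not stated. If mice of a stem are related, p-values that count 6 per lineage could be too small. The estimated correlation of libraries that share a stem was -0.0041 over arms and 0.023 over hairpin ratios. Each is 1 consensus value over all arms or all ratios, so it cannot show whether a single arm varied by stem. Exercised-lineage mouse 1 stood apart, with the lowest level of both 5p arms, and values without it are given beside the results it moved most. Brain miRNAs led the profile, with summed neuronal markers (11 rows, among them Mir-9, Mir-128 and Mir-124) of 2233800 to 3779220 in exercised-lineage libraries and 2889070 to 3610970 in sedentary-lineage libraries.

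Mir-191 5p was the abundant member, at rank 49 of 513 arms by mean level. It stood at 14967, 20916, 20576, 22872, 21521 and 20377 normalized counts in exercised-lineage mice 1 to 6. In sedentary-lineage mice 1 to 6 it stood at 24337, 21311, 21327, 19907, 20528 and 27304. The lineages overlapped, and mouse 1 was the low value of the exercised lineage while mice 1 and 6 were the high values of the sedentary lineage. The means were 20205 ± 2719 in exercised-lineage mice and 22452 ± 2823 in sedentary-lineage mice (SD, n = 6 each), and the log2 difference, exercised minus sedentary, was -0.16 (SE 0.11, 95% confidence interval -0.40 to 0.09), with a limma adjusted p of 0.597. Without exercised-lineage mouse 1 the difference was -0.07. As a share of all miRNA reads, this guide arm held 2479 ± 119 RPM (its reads scaled to library totals) in exercised-lineage mice and 2608 ± 256 RPM in sedentary-lineage mice (SD, n = 6 each).

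Mir-425 5p, the guide arm of the neighbouring hairpin, was the member that varied most. It stood at 793, 1006, 1448, 1912, 1719 and 1619 normalized counts in exercised-lineage mice 1 to 6, and at 1432, 1196, 1811, 1191, 1357 and 1753 in sedentary-lineage mice 1 to 6. Within the exercised lineage the 3 libraries of stem R31 were all lower than the 3 of stem R41, with means of 1082 ± 334 for R31 and 1750 ± 149 for R41 (SD, n = 3 each), a split noticed in the values and given without a test. In the sedentary lineage the stems overlapped. The means were 1416 ± 433 in exercised-lineage mice and 1457 ± 269 in sedentary-lineage mice (SD, n = 6 each), a log2 difference of -0.09 (95% confidence interval -0.53 to 0.36, limma adjusted p = 0.922). That difference was 0.07 without exercised-lineage mouse 1, 0.28 without the R31 libraries and -0.45 without the R41 libraries, with limma adjusted p of 0.906, 0.497 and 0.545, so its sign differed with the stem of the exercised lineage that was counted.

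The passenger arms were far less abundant. Mir-191 3p* stood at 117.5, 112.8, 110.9, 110.6, 109.3 and 101.7 normalized counts in exercised-lineage mice 1 to 6, and at 76.7, 90.2, 101.7, 108.3, 105.4 and 94.3 in sedentary-lineage mice 1 to 6. All 6 exercised-lineage libraries were above the sedentary median, yet the lineages overlapped. The means were 110.5 ± 5.16 in exercised-lineage mice and 96.1 ± 11.7 in sedentary-lineage mice (SD, n = 6 each), a log2 difference of 0.21 (SE 0.10, 95% confidence interval -0.02 to 0.43) with an unadjusted limma p of 0.0682 and an adjusted p of 0.532. With any 1 library left out it ran from 0.14 (without sedentary-lineage mouse 1) to 0.24. Mir-425 3p* stood at 261, 251, 196, 201, 250 and 247 normalized counts in exercised-lineage mice 1 to 6, and at 174, 248, 216, 278, 200 and 241 in sedentary-lineage mice 1 to 6. Its means of 234 ± 28.4 in exercised-lineage mice and 226 ± 37.0 in sedentary-lineage mice (SD, n = 6 each) differed by 0.06 on the log2 scale (95% confidence interval -0.21 to 0.33, limma adjusted p = 0.908), or by -0.01 without sedentary-lineage mouse 1.

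**Figure D1:**
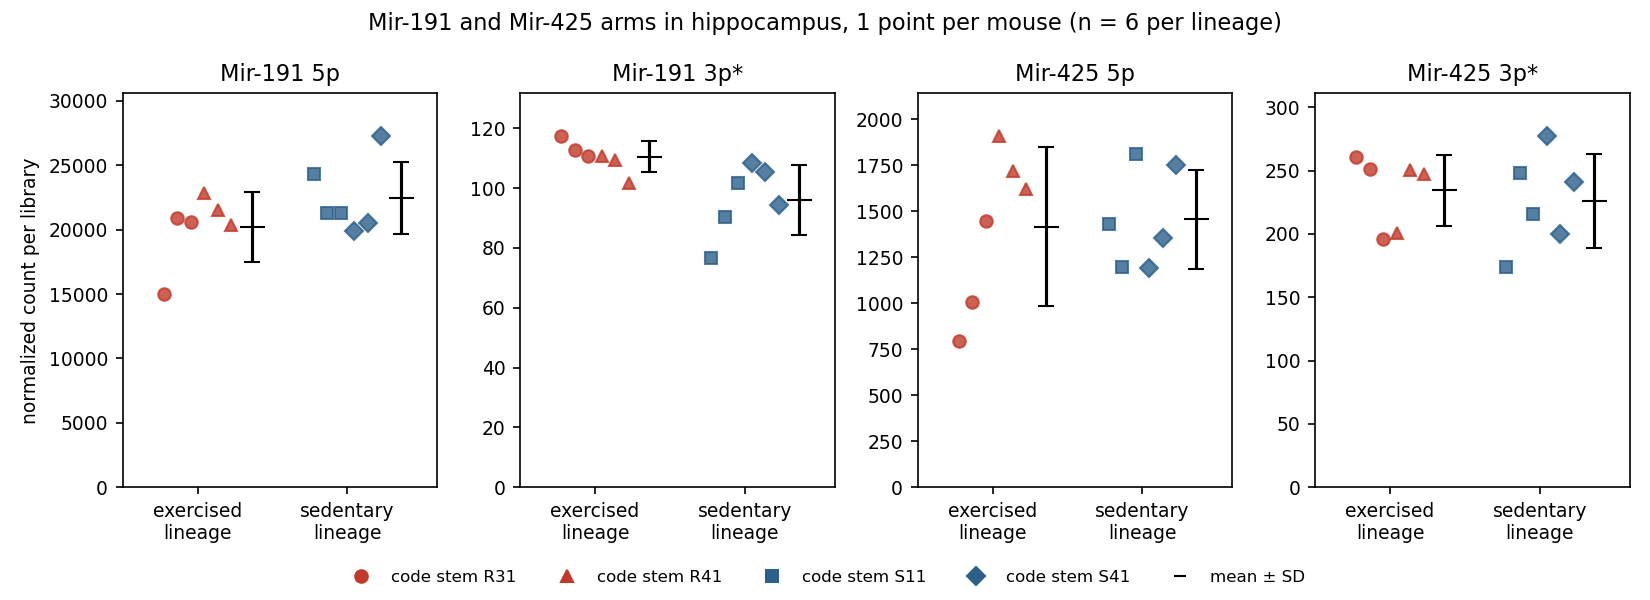
Normalized counts (vertical axes, from 0) of the 4 arms in each of the 12 libraries, exercised lineage left of sedentary lineage in each panel, with marker shape for the code stem and black bars for mean ± SD (n = 6 each). The lineages overlap for each arm, and the 3 R31 libraries (793 to 1448) lie below the 3 R41 libraries (1619 to 1912) for Mir-425 5p.

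All 4 arms passed the filter on low values (a mean of at least 10), and 0 of 4 were called between the lineages at a limma adjusted p below 0.05. Among all 474 arms tested, 0 were called (0%), and 34 (7.17%) had an unadjusted p below 0.05, none of them of this cluster. Both 5p arms had differences below 0 and both 3p* arms above 0, but for Mir-425 the signs changed as described and, for its 5p arm, also with scaling by library totals (0.00). The median difference of all arms was -0.00, and 0.09 under scaling by totals. A difference of 1 arm had a confidence interval that reached a median of 0.34 to either side over all arms, so small shifts were not detectable with 6 mice per lineage.

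With the deposited size factors, the spread of the passenger arm of Mir-191 was the closest of the 4 to its counting error. Mir-191 3p* rested on 63 to 137 reads per library, for which counting error (Poisson) is 0.14 on the log2 scale, against a measured SD of 0.17 over the 12 libraries, but of 0.26 with scaling by library totals. Within the exercised lineage its SD was 0.07, below the counting error of 0.14 there. That narrow spread is therefore not a measure of how alike the mice were. Within the sedentary lineage the SD was 0.18, against a counting error of 0.15. Mir-425 3p* rested on 143 to 305 reads, with a counting error of 0.10 against an SD of 0.20. Mir-425 5p rested on 857 to 1934 reads, with a counting error of 0.04 against an SD of 0.38. Mir-191 5p rested on 16176 to 30123 reads, with a counting error of 0.01 against an SD of 0.20. These counting errors cover sampling of reads only, and the labels name no molecular identifiers, while the limma intervals rest on the spread between mice.

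The ratio of the 2 arms of a hairpin does not depend on how a library is scaled, and the neighbours differed widely in it. The 5p arm of Mir-191 exceeded its 3p* arm 204-fold (geometric mean over the 12 libraries), rank 19 for strand bias among the 155 hairpins with 1 row for each arm. Mir-425 5p exceeded its 3p* arm 6.09-fold, rank 95 of 155. The 5p arm therefore made up 99.4% ± 0.112 of the Mir-191 counts in exercised-lineage mice and 99.6% ± 0.0917 in sedentary-lineage mice, and of the Mir-425 counts 84.6% ± 5.79 in exercised-lineage mice and 86.2% ± 3.47 in sedentary-lineage mice (SD, n = 6 each).

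For Mir-191 the ratio was 126, 184, 184, 205, 195 and 198 in exercised-lineage mice 1 to 6, and 313.2, 234, 208, 182, 193 and 287 in sedentary-lineage mice 1 to 6. Each exercised-lineage value lay below the sedentary median, and the lineages overlapped between 182 and 205. On the log2 scale the means were 7.49 ± 0.26 in exercised-lineage mice and 7.85 ± 0.32 in sedentary-lineage mice (SD, n = 6 each), a difference of -0.36 (SE 0.18, 95% confidence interval -0.75 to 0.02). This was not called (limma unadjusted p = 0.0612, adjusted p = 0.535 over 155 hairpins), and it was -0.26 without exercised-lineage mouse 1. Over the 155 hairpins 0 ratios were called (0%), and 10 (6.45%) had an unadjusted p below 0.05.

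For Mir-425 the ratio was 3.03, 3.99, 7.36, 9.48, 6.84 and 6.52 in exercised-lineage mice 1 to 6, and 8.18, 4.81, 8.36, 4.28, 6.75 and 7.24 in sedentary-lineage mice 1 to 6. It spanned 3.13-fold over the libraries, against 2.48-fold for Mir-191. The lineages differed by -0.14 on the log2 scale (95% confidence interval -0.76 to 0.47, limma adjusted p = 0.872), and by 0.04 without exercised-lineage mouse 1. The median log2 guide-to-passenger ratio of 134 hairpins was 4.17 in exercised-lineage mouse 1, near the top of the exercised lineage (3.83 to 4.19) and inside the range of the sedentary lineage (4.04 to 4.26). The low ratios of both hairpins in that mouse did not go with a low median over hairpins, and their cause was not tested.

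**Figure D2:**
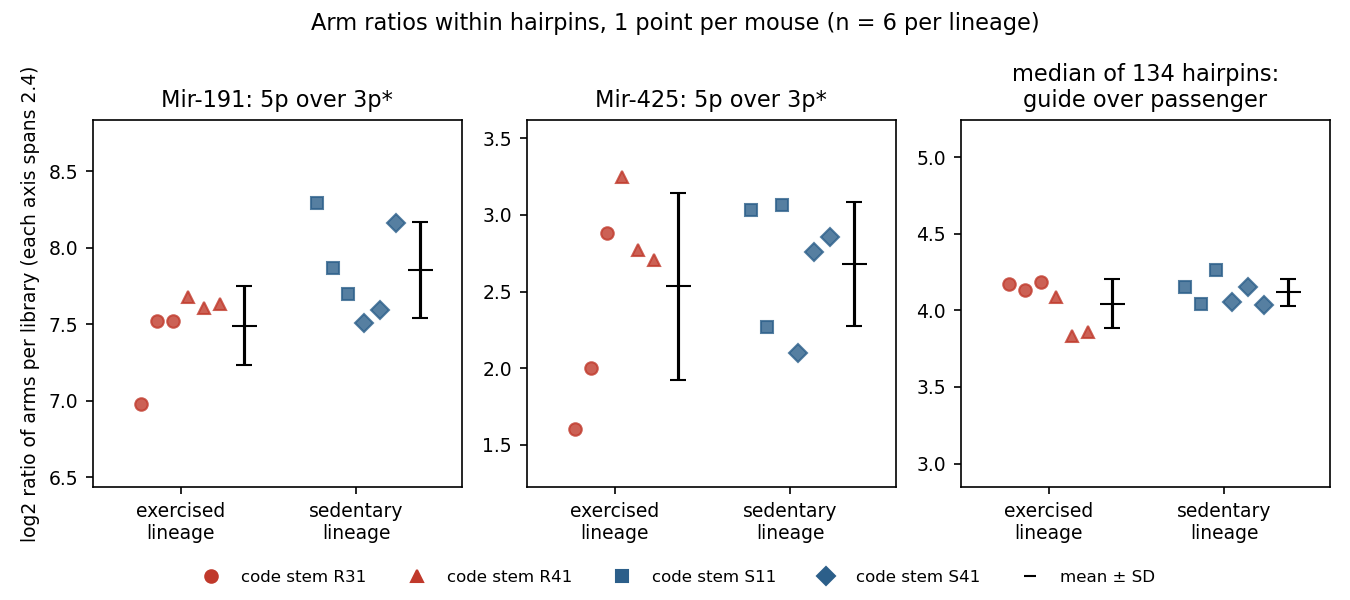
Log2 ratio of 5p to 3p* per library for Mir-191 and Mir-425 and, at the right, the median log2 ratio of guide to passenger over 134 hairpins, exercised lineage left of sedentary lineage, with marker shape for the code stem and bars for mean ± SD (n = 6 each). The 3 vertical axes span the same range. Mir-191 was at 7.49 ± 0.26 in exercised-lineage mice and 7.85 ± 0.32 in sedentary-lineage mice. A median over 134 hairpins varies less than a single ratio, so the right panel does not measure the usual scatter of 1 hairpin. Among 155 hairpins the SD of the log2 ratio over the 12 libraries was 0.33 for Mir-191 (rank 67 from the lowest). For Mir-425 it was 0.50 (rank 105), and the median SD over hairpins was 0.39.

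Within each hairpin the 2 arms had a correlation below 0, which did not pass the test. Mir-191 5p and 3p* had a Pearson r of -0.60 over the 12 libraries (permutation p = 0.0606, Spearman rho -0.50, permutation p = 0.104). It was -0.54 within the exercised and -0.58 within the sedentary lineage, -0.64 without the 2 libraries farthest from the median of Mir-191 5p, and -0.52 with scaling by library totals. Mir-425 5p and 3p* had an r of -0.41 (permutation p = 0.181, rho -0.51, permutation p = 0.0929), which was -0.20 without the 2 farthest libraries and -0.61 under scaling by totals. In all, 7 relations were computed, and these 2 had adjusted p of 0.141 and 0.253 for r and of 0.163 each for rho. Both were near the low end of the same measure over all hairpins, at ranks 10 and 16 from the lowest of 155, where the median r was 0.16 and 60 hairpins (38.7%) were below 0. Arms of 1 library share its size factor and depth, so this ranking is a description.

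**Figure D3:**
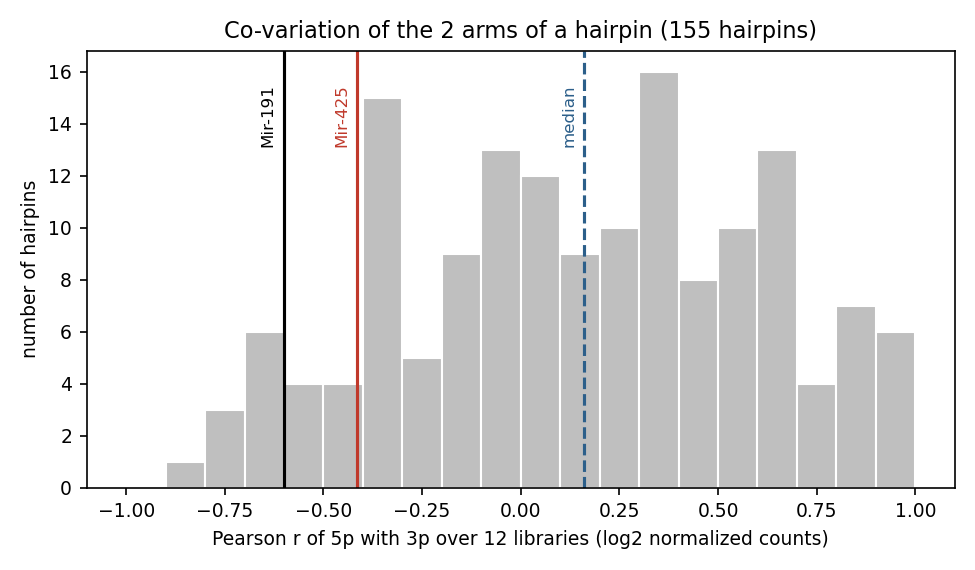
Histogram of Pearson r between the 5p and 3p arms of 155 hairpins over the 12 libraries (horizontal axis, log2 normalized counts; vertical axis, number of hairpins in bins of 0.1). Solid lines mark Mir-191 (-0.60) and Mir-425 (-0.41), both left of the median of all hairpins (0.16, dashed).

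The guide arms of the neighbours had a positive correlation that was smaller without a few libraries and under 1 of 2 other scalings. Mir-191 5p and Mir-425 5p had an r of 0.72 (permutation p = 0.00897, adjusted 0.0628 over 7 relations) and a rho of 0.66 (permutation p = 0.0236, adjusted 0.0978), so neither passed the correction. The r was 0.83 within the exercised lineage (0.52 over its 5 libraries other than mouse 1) and 0.58 within the sedentary one. Without exercised-lineage mouse 1 it was 0.43, and without the 2 libraries farthest from the median of Mir-191 5p it was 0.34, so the relation rested on those libraries. With scaling by library totals it was 0.07, and with upper-quartile scaling 0.68. Among the r of Mir-191 5p with the 473 other tested arms, that of its neighbour took rank 43 from the highest. The 2 arm ratios, which no scaling changes, had an r of 0.62 (permutation p = 0.0316, adjusted 0.111) and a rho of 0.64 (permutation p = 0.0279, adjusted 0.0978), with 0.24 left without the 2 farthest libraries. The 3p* arms of the 2 hairpins had an r of 0.44 (permutation p = 0.154), and -0.04 without sedentary-lineage mouse 1. Across hairpins, Mir-191 5p with Mir-425 3p* had -0.39 (permutation p = 0.217, adjusted 0.254), and Mir-425 5p with Mir-191 3p* had -0.26 (permutation p = 0.418, adjusted 0.418).

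The ratio of Mir-191 5p to Mir-425 5p showed the same split of the exercised lineage. It was 18.9, 20.8, 14.2, 11.96, 12.5 and 12.6 in exercised-lineage mice 1 to 6, and 17.0, 17.8, 11.8, 16.7, 15.1 and 15.6 in sedentary-lineage mice 1 to 6. The R31 libraries had the 2 highest values of all 12, and the R41 libraries were near the bottom with sedentary-lineage mouse 3. The log2 means were 3.89 ± 0.34 in exercised-lineage mice and 3.96 ± 0.21 in sedentary-lineage mice (SD, n = 6 each), a difference of -0.07 (exact permutation p = 0.675, two-sided, all 924 assignments), or -0.14 without exercised-lineage mouse 1. It was 0.19 without the R41 libraries and -0.33 without the R31 libraries (exact permutation p = 0.310 and 0.0952).

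**Figure D4:**
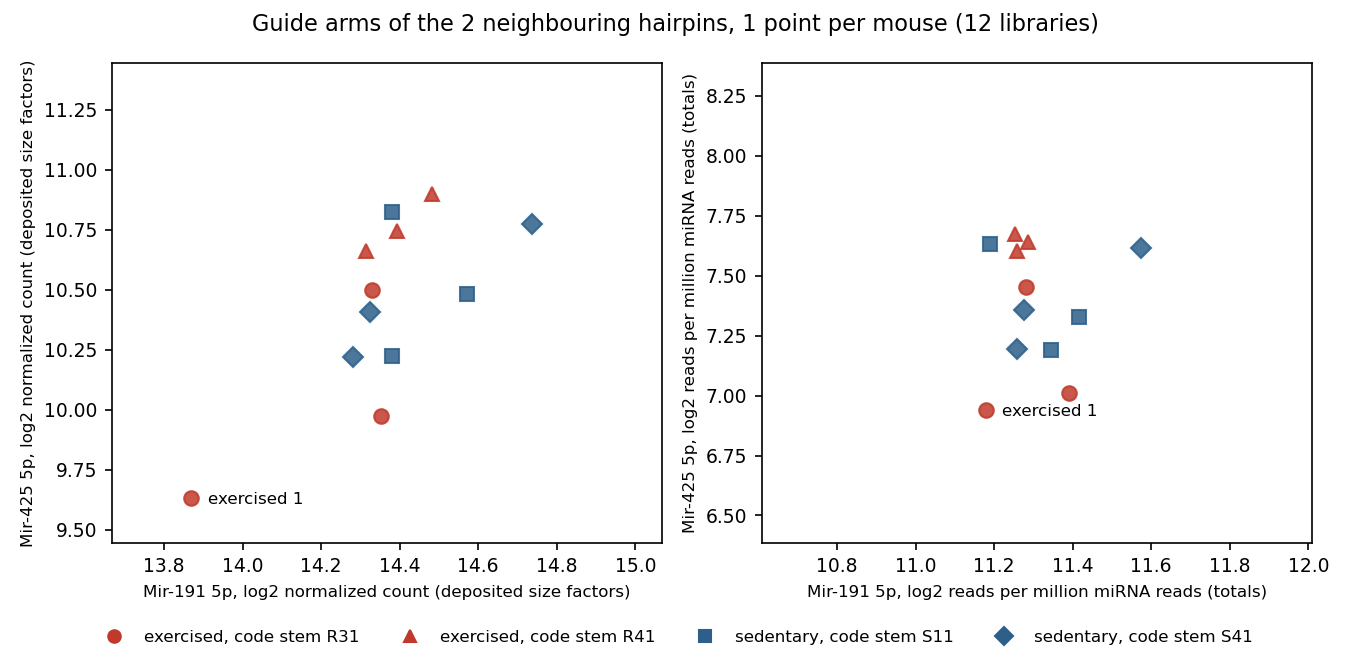
Mir-425 5p against Mir-191 5p on log2 scales in the 12 libraries, as deposited normalized counts (left) and as RPM of all miRNA reads (right), with colour for lineage and shape for code stem. Exercised-lineage mouse 1 is at the lower left of the left panel, where r is 0.72, and at the right, where totals set the scale, r is 0.07.

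Other neighbouring miRNAs varied together to different degrees, measured in the same way and without a test. Mir-221-P1 and Mir-221-P2, a pair on chromosome X known from proliferating cells, had an r of 0.81 between their 3p arms. Mir-143_3p and Mir-145_5p, known from smooth muscle, had 0.68. Mir-144-v1_3p and Mir-451_5p, of red cells, had 0.37, and Mir-296_3p* and Mir-298_5p, of the imprinted Gnas region, had 0.32. The activity-regulated Mir-132-P1_3p and Mir-132-P2_5p had 0.21. Within the exercised and the sedentary lineage, the Mir-221 pair had 0.82 and 0.81. Mir-143 with Mir-145 had 0.75 and 0.60, and Mir-144 with Mir-451 had 0.45 and 0.32. Mir-296 with Mir-298 had 0.98 and -0.31 and the Mir-132 pair -0.41 and 0.76, so their signs differed between the lineages. Mean levels of Mir-144-v1_3p and Mir-296_3p* were 29.0 and 84.3 normalized counts, where counting error is larger. Scaled by totals, Mir-221 and Mir-143 with Mir-145 had 0.67 and 0.57, Mir-144 with Mir-451 had 0.49 and Mir-296 with Mir-298 had 0.42, while the Mir-191 and Mir-425 pair had 0.07 and the Mir-132 pair 0.02. Without exercised-lineage mouse 1 the r of the other 5 pairs lay between 0.21 (Mir-132) and 0.83 (Mir-221), and that of the Mir-191 and Mir-425 pair was 0.43.

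The arms most like each guide arm over the 12 libraries were not the neighbour. All arms named here were picked as the extremes of r in these same libraries, so the size of their r follows partly from that choice. For Mir-191 5p the most alike were Mir-7-P3_5p (r = 0.92) and Mir-7-P1_5p (0.91), of the neuronal and neuroendocrine Mir-7 family, and Mir-1981_3p* (0.90). Under scaling by totals their r was 0.60, 0.58 and 0.66. The arms least like it were Mir-181-P2a_3p* (-0.92), Mir-376-P1_3p (-0.85), of the imprinted Dlk1-Dio3 cluster, and Mir-873-v1_5p (-0.83). Under scaling by totals these were -0.68, -0.54 and -0.36. For Mir-425 5p the most alike were Mir-30-P1a_5p (0.92), Mir-221-P2_5p* (0.91) and Mir-9-P1_5p with its copies (0.90), the neural miRNA of neurogenesis. The least alike were Mir-873-v1_5p (-0.90), Mir-33-P1_5p (-0.83), known from cholesterol metabolism, and Mir-666_5p (-0.82). Under scaling by totals the r of Mir-425 5p was 0.76, 0.64 and 0.71 with its 3 most alike arms. With its 3 least alike it was -0.84, -0.81 and -0.82. Without exercised-lineage mouse 1 the r of Mir-191 5p with its 3 most alike arms was 0.78, 0.76 and 0.83, and with its 3 least alike -0.87, -0.73 and -0.52. For Mir-425 5p these values were 0.87, 0.84 and 0.82, and -0.86, -0.70 and -0.64. None of these arms was called between the lineages (limma adjusted p from 0.532 to 0.995). The widest difference among them was that of Mir-7-P1_5p, which shares its row with another copy, with 70012 ± 29277 normalized counts in exercised-lineage mice and 97029 ± 29453 in sedentary-lineage mice (SD, n = 6 each), a log2 difference of -0.56.

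As a reference miRNA, Mir-191 5p ranked differently by scaling. With the deposited size factors its SD of 0.20 (log2) over the 12 libraries was at rank 115 from the lowest of 474 arms, and 21 of the 40 arms nearest in level had a lower SD. Scaled by library totals its SD was 0.11, at rank 9, and without exercised-lineage mouse 1 it was 0.14 with the deposited factors. With upper-quartile scaling the SD of Mir-191 5p was 0.18, at rank 61. Mir-425 5p, at 0.38, was at rank 321, and 36 of the 40 arms nearest in level had a lower SD. Scaled by totals the SD of Mir-425 5p was 0.26, at rank 172. Of the other miRNAs often used as reference, Mir-24-P1_3p had the lowest SD of all 474 arms with the deposited factors (0.07, 61074 ± 2281 normalized counts in exercised-lineage mice, against 60110 ± 3752 in sedentary-lineage mice), but it was at rank 50 when totals set the scale. Mir-103-P1_3p had an SD of 0.27, Mir-15-P2a_5p (miR-16) of 0.25, Mir-423_5p of 0.24, Mir-26-P3_5p of 0.23 and Mir-26-P1_5p of 0.18. Scaled by totals these SDs were 0.16, 0.27, 0.17, 0.17 and 0.13, in the same order. A lower SD under totals was thus not particular to Mir-191 5p. Of the 8 reference arms, Mir-191 5p and Mir-425 5p included, 3 had a lineage difference above 0 and 5 below, with 0 called and a median of -0.06, beside -0.00 over all arms.

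**Figure D5:**
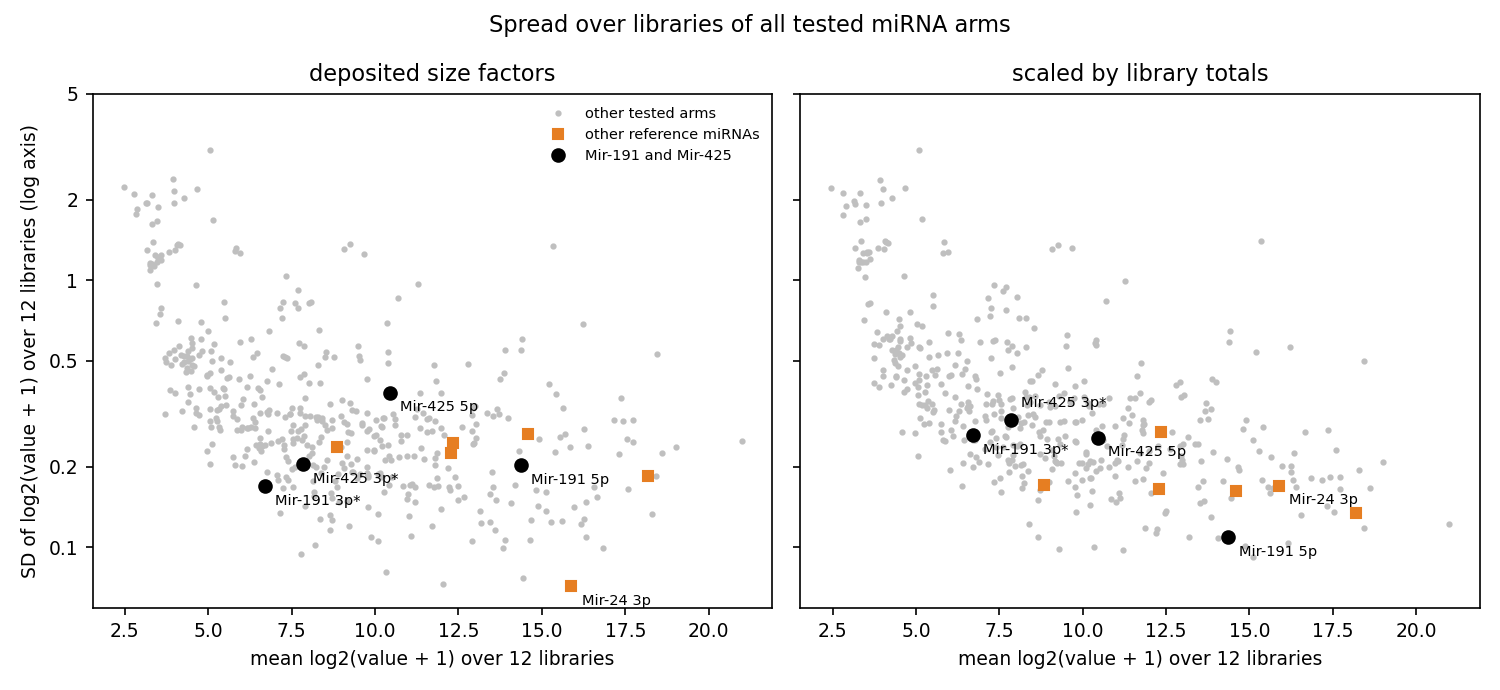
SD of log2(value + 1) over the 12 libraries (vertical log axis) against mean log2(value + 1) for 474 tested arms, with the deposited size factors (left) and scaled by library totals (right). Black points are the 4 Mir-191 and Mir-425 arms and orange squares the other reference miRNAs. Mir-191 5p is at 0.20 on the left and 0.11 on the right, and Mir-24 3p has the lowest SD on the left.

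Mir-191 also belongs to a set of miRNAs studied in neuronal activity and at synapses. Of the 29 arms of that list, which holds Mir-132, Mir-134, Mir-138 and others, 18 had a positive and 11 a negative lineage difference. None was called by limma, and 0 had an unadjusted p below 0.05. Their median was 0.08, beside -0.00 over all arms, and Mir-191 5p was among the 11 below 0. The range was -0.37 (Mir-146-P2_5p, a regulator of innate immune signalling) to 0.55 (Mir-188-P1_5p).

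Markers of other cell types also moved between libraries, and their part in the values of Mir-191 and Mir-425 was not tested. Exercised-lineage mouse 1, lowest for both 5p arms, also had the lowest summed neuronal markers (2233800, against 3004670 to 3779220 in the other exercised-lineage libraries). That sum was led by Mir-9-P1_5p, with a mean of 2056520 in exercised-lineage mice. This library also had the lowest sum of normalized counts over all arms (6458450, against 7793640 to 9370390 in the other exercised-lineage libraries). Its summed list of leukocytes and microglia was the lowest as well (8927, against 14284 to 19496 in the other exercised-lineage libraries). That list (9 rows, none at 0 throughout) ranged from 8927 to 19496 in exercised-lineage mice and from 14238 to 21187 in sedentary-lineage mice and was led by Mir-146-P2_5p, and 5 of its rows had a positive and 4 a negative lineage difference, with 0 called and a median of 0.03. The leukocyte-defining Mir-142-P1-v1_5p averaged 351 ± 79.3 normalized counts in exercised-lineage mice and 341 ± 68.7 in sedentary-lineage mice (SD, n = 6 each). Red cell markers (4 rows, none at 0 throughout) summed to 622 to 826 in exercised-lineage mice and 726 to 1219 in sedentary-lineage mice. All 4 rows had a negative lineage difference (median -0.46), with 0 called and 1 at an unadjusted limma p below 0.05. Choroid plexus and ependymal markers (5 rows) summed to 46039 to 200056 in exercised-lineage mice and 44551 to 196075 in sedentary-lineage mice. All 5 were negative (median -0.22, 0 called). Endothelial and mural markers (4 rows) summed to 312217 to 692389 in exercised-lineage mice and 339407 to 724124 in sedentary-lineage mice, with 1 positive and 3 negative (median -0.09, 0 called). Oligodendrocyte markers (2 rows) summed to 2716 to 3593 in exercised-lineage mice and 1476 to 3851 in sedentary-lineage mice, with 2 positive (median 0.19, 0 called). Endothelial and mural sums divided the exercised lineage as Mir-425 5p did, with 688103, 413084 and 692389 in the R41 libraries and 368868, 312217 and 344976 in the R31 libraries. They also divided the sedentary lineage, where Mir-425 5p overlapped between the stems. These sums were 724124, 490539 and 602155 in the S41 libraries and 388146, 339407 and 427677 in the S11 libraries. Choroid plexus sums overlapped between stems R31 and R41, with 50233, 61602 and 46039 in the R41 libraries and 175077, 56525 and 200056 in the R31 libraries. In bulk tissue fewer cells of a type and less RNA per cell cannot be told apart.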

How the data were processed

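Small RNA from the hippocampus of 12 mice (6 per lineage, grouped by title) was extracted with an miRNeasy kit and made into libraries with an NEBNext small RNA kit, per the labels' protocols. The table deposited by the authors holds a normalized signal per mature arm, read counts over a size factor of the library. Bowtie 1.3.0, DESeq2 and mm10 are named in the submitters' processing notes. How reads were trimmed, matched and filtered is not given in the sources used. In every library 100% of positive values are whole multiples, within 0.01, of 1 step, which was taken as 1 read to give depth. The smallest positive value stood for 2 to 6 reads, so no count model was fitted.

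Lineages were compared with limma 3.58.1 in R 4.3.3 (eBayes, trend allowed) on log2(value + 1) for 474 of 513 arms with a mean of at least 10, with Benjamini-Hochberg adjustment over all of them. Differences are on that scale, which understates those of low arms. Ratios of 5p to 3p were fitted likewise over 155 hairpins with both means at least 10. Single ratios had exact permutation tests, and correlations had permutation tests with 100000 resamples, two-sided (scipy 1.17.1). The tests were checked on simulated data. Named arms are the 4 members, the 3 most and 3 least alike each guide arm by r, the reference list and 5 other clustered pairs; list and marker arms were named after their values were seen. Members and lists were chosen with earlier results of these data known. The closest pair of libraries within a lineage differed far beyond counting noise (chi-square per degree of freedom 141), so all 12 were counted.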

Additional observations from a re-analysis of the deposited data

Results flagged for a closer look

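In 14 sets of 6 libraries (the 4 arms and 3 log2 ratios in each lineage), a library was looked for whose gap to its nearest neighbour was too large a part of the whole range for 6 values (Dixon's 95% critical value). Chance gives about 1 such set in 20, and 2 were found, both in exercised-lineage mouse 1. Its Mir-191 5p level was 14967 normalized counts, with the gap to the next library 0.684 of the range. With scaling by library totals that gap was 0.337 of the range, below the critical value, and this library had the lowest sum of normalized counts over all arms. Its log2 ratio of Mir-191 5p to 3p* was 6.98, with a gap of 0.774 of the range. Its Mir-191 3p* level was 117.5 normalized counts, the highest of the 12 libraries. The 2 flagged sets are not separate results, because Mir-191 5p is the numerator of that ratio. Other sets among the 14 share values in the same way, so 2 flags cannot be read as an excess over chance.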

How the results depend on the processing

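Of 286 values recomputed under alternatives, 271 kept their direction and side of the threshold or stayed within 1.5 times, and 8 changed sign. Keeping the side of the threshold says little, since 0 arms and 0 hairpin ratios were called in the main fits. The 286 include 25 counts of arms called and 22 of hairpin ratios called, each 0. For the r of the 2 guide arms, the side was judged by unadjusted permutation p. The log2 difference of Mir-425 5p was 0.00 (0.000638) scaled by totals and 0.28 without the R31 libraries, and with any 1 library left out it ran from -0.19 to 0.068 (the left-out range). That of Mir-425 3p* was -0.028 without the S11 libraries, with a left-out range of -0.013 to 0.12. The log2 5p to 3p ratio of Mir-425 was 0.23 without the R31 libraries (left-out range -0.29 to 0.042), and the log2 ratio of Mir-191 5p to Mir-425 5p was 0.19 without the R41 libraries (left-out range -0.17 to -0.01). The r of Mir-191 5p with Mir-425 5p was 0.071 scaled by totals, 0.58 within the sedentary lineage and 0.34 without the 2 farthest libraries, with a left-out range of 0.43 to 0.77. The SD scaled by totals was 0.26 for Mir-191 3p* and 0.11 for Mir-191 5p (left-out range 0.14 to 0.21 for Mir-191 5p with the deposited factors). The cause was not tested. Differences of Mir-191 kept their sign under every alternative run, from -0.26 to -0.05 for 5p, 0.11 to 0.31 for 3p* and -0.51 to -0.21 for the ratio. No arm or hairpin ratio was called under any of them, with 16 to 57 arms at an unadjusted limma p below 0.05. The labels state no pairing of the lineages by mouse number. Deviations of same-numbered mice had an r of -0.17 to 0.15 over the 6 numbers, which cannot exclude a pairing. With mouse number as a replicate block, differences of Mir-191 5p, Mir-191 3p*, Mir-425 5p and Mir-425 3p* were -0.16, 0.21, -0.09 and 0.06. Those of the ratios were -0.36 and -0.14, with 0 calls and 16 arms at an unadjusted limma p below 0.05. Centring each arm ratio on the median hairpin of its library, and a random effect of code stem on the ratios, were chosen after seeing the data, as were the values without exercised-lineage mouse 1 for alike arms and other pairs. Centring gave -0.29 for the Mir-191 ratio and -0.072 for the Mir-425 ratio (limma adjusted p = 0.702 and 0.976), and the random effect left them at -0.36 and -0.14 (adjusted p = 0.592 and 0.883). The edgeR and DESeq2 alternatives were not run.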
